A study of Mus musculus with 6 samples.

Results

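The S100 proteins are small calcium-binding proteins, and 9 of the 10500 probes on these arrays carried a single gene symbol of this family. All 9 were kept, since the limit of 10 probes was not reached: S100b, S100a3, S100a4, S100a5, S100a6, S100a8, S100a11, S100a13 and S100a14, with 1 probe each. The 9 were chosen by symbol, but the family was selected on the measured log2 change of S100b, the largest drop in this comparison, so the values of S100b are given as a description without a test, and the 8 other genes were tested. The samples were 2T3 cells, an immortalised mouse pre-osteoblast line, cultured in OptiCells, which are closed cassettes with gas-permeable membranes. There were 3 static control samples and 3 samples placed on a Random Positioning Machine, a device that turns a culture continuously about changing axes and is used to simulate microgravity. Total RNA of each sample was measured on 1 array. Treatment length and passage number are not given here by any source, and the series title states that the comparison addresses differentiation and gene expression of these cells.

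As background, S100 proteins carry a pair of EF-hands, the helix-loop-helix motif that holds calcium, and most work as dimers. Calcium opens a surface on the dimer that grips target proteins, among them annexins at membranes, myosin and other cytoskeletal proteins, and p53. Some are also released from cells and bind the receptor Ager (RAGE) or, for S100a8 with its partner S100a9, Tlr4. S100b is best known from glia, and is also used as a marker of cartilage, fat and melanocytes. S100a4 and S100a6 are abundant in fibroblasts and other mesenchymal cells, the lineage to which osteoblasts belong.

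The genes of the S100a group lie mostly side by side in one gene cluster, whereas S100b lies on another chromosome. In the order of the RefSeq reference (GRCm38.p6) the block from S100a1 to S100a9 held 12 protein-coding genes, of which 7 had a probe here, in the order S100a13, S100a14, S100a3, S100a4, S100a5, S100a6 and S100a8. S100a11 lies further along the same chromosome. The 250 bases upstream of the annotated start are shown for the 5 genes whose values in simulated microgravity were all below those of the static samples, because these are the genes the results turn on. The sequences are from RefSeq, build GRCm38.p6, plus strand, written 5′ to 3′. They cover chr10:76253586-76253835 for S100b, chr3:90603520-90603769 for S100a4, chr3:90612644-90612893 for S100a6, chr3:93520246-93520495 for S100a11 and chr3:90514185-90514434 for S100a13. Capitals mark matches, on either strand, to 6 short motifs. The TATA box was searched as TATAAA and the E-box as CANNTG. The AP-1 motif was searched as TGANTCA and the GC box as GGGCGG. The RUNX motif was searched as TGTGGT and the CCAAT box by the letters of its name.
S100b: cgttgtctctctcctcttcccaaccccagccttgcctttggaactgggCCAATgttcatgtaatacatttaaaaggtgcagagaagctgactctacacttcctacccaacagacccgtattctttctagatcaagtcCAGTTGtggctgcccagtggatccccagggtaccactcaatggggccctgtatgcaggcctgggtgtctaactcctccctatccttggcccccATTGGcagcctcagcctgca
S100a4: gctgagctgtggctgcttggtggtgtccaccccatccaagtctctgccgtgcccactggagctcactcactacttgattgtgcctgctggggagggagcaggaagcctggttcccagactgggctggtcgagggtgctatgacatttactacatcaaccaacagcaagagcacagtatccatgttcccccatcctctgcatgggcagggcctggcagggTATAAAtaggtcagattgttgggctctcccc
S100a6: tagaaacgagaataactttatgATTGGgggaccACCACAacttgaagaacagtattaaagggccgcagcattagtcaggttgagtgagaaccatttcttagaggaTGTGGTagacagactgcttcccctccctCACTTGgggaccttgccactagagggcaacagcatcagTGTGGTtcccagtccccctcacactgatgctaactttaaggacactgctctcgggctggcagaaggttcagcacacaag
S100a11: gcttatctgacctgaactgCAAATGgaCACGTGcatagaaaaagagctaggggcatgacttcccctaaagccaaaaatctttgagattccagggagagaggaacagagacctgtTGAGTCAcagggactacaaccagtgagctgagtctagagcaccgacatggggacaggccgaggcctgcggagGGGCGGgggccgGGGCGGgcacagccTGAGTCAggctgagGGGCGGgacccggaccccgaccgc
S100a13: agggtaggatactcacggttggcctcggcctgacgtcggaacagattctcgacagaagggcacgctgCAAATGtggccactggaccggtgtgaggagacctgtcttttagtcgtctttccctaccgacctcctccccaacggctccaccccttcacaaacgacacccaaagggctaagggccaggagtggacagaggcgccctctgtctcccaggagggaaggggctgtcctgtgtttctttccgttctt

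None of the 6 motifs (0) was present in all 5 windows. The E-box was found in 4 of the 5, missing from S100a4, and 66.2% of the 32851 upstream windows of that length in the RefSeq table hold one. S100b held 2 CCAAT boxes, the nearer one beginning 20 bases upstream of the start, and 1 E-box, and 33.9% of all windows hold a CCAAT box. S100a4 had a TATA box beginning 31 bases upstream, a motif found in 12.4% of all windows. The RUNX motif, named for the family of the osteoblast regulator Runx2, occurred 3 times in S100a6 and in 0 of the other 7 members with a window, against 14.0% of all windows. S100a11 held 2 AP-1 motifs (6.75% of all windows) and 3 GC boxes (32.7%). No matches of 1 motif overlapped those of another. The windows of S100b, S100a4, S100a6, S100a11 and S100a13 had a GC content of 53.6%, 57.2%, 50%, 60% and 58.8%, against a median of 52.4% over all windows. A match describes the letters of this stretch and does not show that a factor binds there.

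Values are given below as relative intensity, which is the deposited intensity divided by the median of all probes on the same array. Medians of the 6 arrays lay between 0.908 and 0.927 before this step, and each array carried 10337 to 10432 values. Relative intensities under 0.1 were set to 0.1, which applied to 6.44% to 19.8% of values per array, with the lowest shares on microgravity 2 and static 2. A change is the microgravity mean of log2 values minus the static mean, tested with limma over 10146 probes with a threshold of 0.05 on the adjusted p. Ratios and folds come from these means of log2 values, so they differ slightly from ratios of the printed group means. Of these probes 28 passed (0.276%), 19 lower and 9 higher in the microgravity samples. No probe (0) passed in any fit with 1 array removed, whichever of static 1, 2, 3 and microgravity 1, 2, 3 it was, and 761 to 968 probes had an unadjusted p under 0.05 in those fits. With 3 arrays a group, precision is limited by their number. The labels do not say whether the samples of a group were separate cultures, so the p-values rest on the spread between samples that may be technical repeats. Because RNA was taken from whole cultures, fewer cells that make an mRNA and less of it per cell cannot be told apart.

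Known osteoblast markers were checked in the same values. Of a list of 12, 7 had a probe, and Col1a1 and Col1a2, the chains of type I collagen, averaged 33.1 ± 11.3 and 47.5 ± 19.5 (SD, n = 3) in static samples. The late markers Ibsp and Dmp1 were dim, at 0.230 ± 0.0673 and 0.107 ± 0.0341 in static samples. Of the 7, 6 were lower and 1 higher in simulated microgravity, 2 passed the limma threshold, both lower, against 0.279% of all genes, and the median log2 change was -0.71. Pth1r, the receptor for parathyroid hormone, fell from 5.33 ± 0.408 to 1.06 ± 0.0892 (SD, n = 3, log2 change -2.34, limma adjusted p = 0.0194). Alpl, the alkaline phosphatase of mineralising cells, fell from 2.85 ± 0.513 to 0.599 ± 0.0847 (SD, n = 3, log2 change -2.25, limma adjusted p = 0.0295). Col1a2 was lower without overlap (log2 change -1.20, limma adjusted p = 0.363). The summed intensity of the 7 was 55.8 to 116 in static and 25.9 to 54.6 in microgravity samples. Bglap, Sp7, Runx2 and Spp1 were not analysed here, as no probe carried these single symbols.

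S100b had a relative intensity of 4.55, 3.46 and 2.39 in static samples 1, 2 and 3, and of 0.258, 0.304 and 0.415 in microgravity samples 1, 2 and 3. Every static sample lay above every microgravity sample, and the lowest static value was 5.76 times the highest microgravity value. The group means were 3.46 ± 1.08 and 0.325 ± 0.0805 (SD, n = 3). The log2 change was -3.39, a 10.5-fold lower level. It ranked 1 among the lower changes of all probes tested, which follows from the choice of the family by this drop. In static samples the S100b signal stood at percentile 65.5 to 76.2 of its array, and in simulated microgravity at percentile 30.3 to 36.4. All 6 values were above the floor of 0.1, so the floor did not enter this change. No detection call was used, so it is not known how much of the remaining 0.325 is background, which would make the 10.5-fold figure a low estimate. Pth1r, Alpl and Col1a2, given above, were also lower without overlap on the same arrays, against 8.07% of all genes. Col1a1 was lower with overlapping groups (log2 change -0.71), and Ibsp and Dmp1 were dim (-0.05 and -0.18). Phex, named after its values were seen, was higher (0.11). The part of these markers in the S100b values was not tested.

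**Figure D1:**
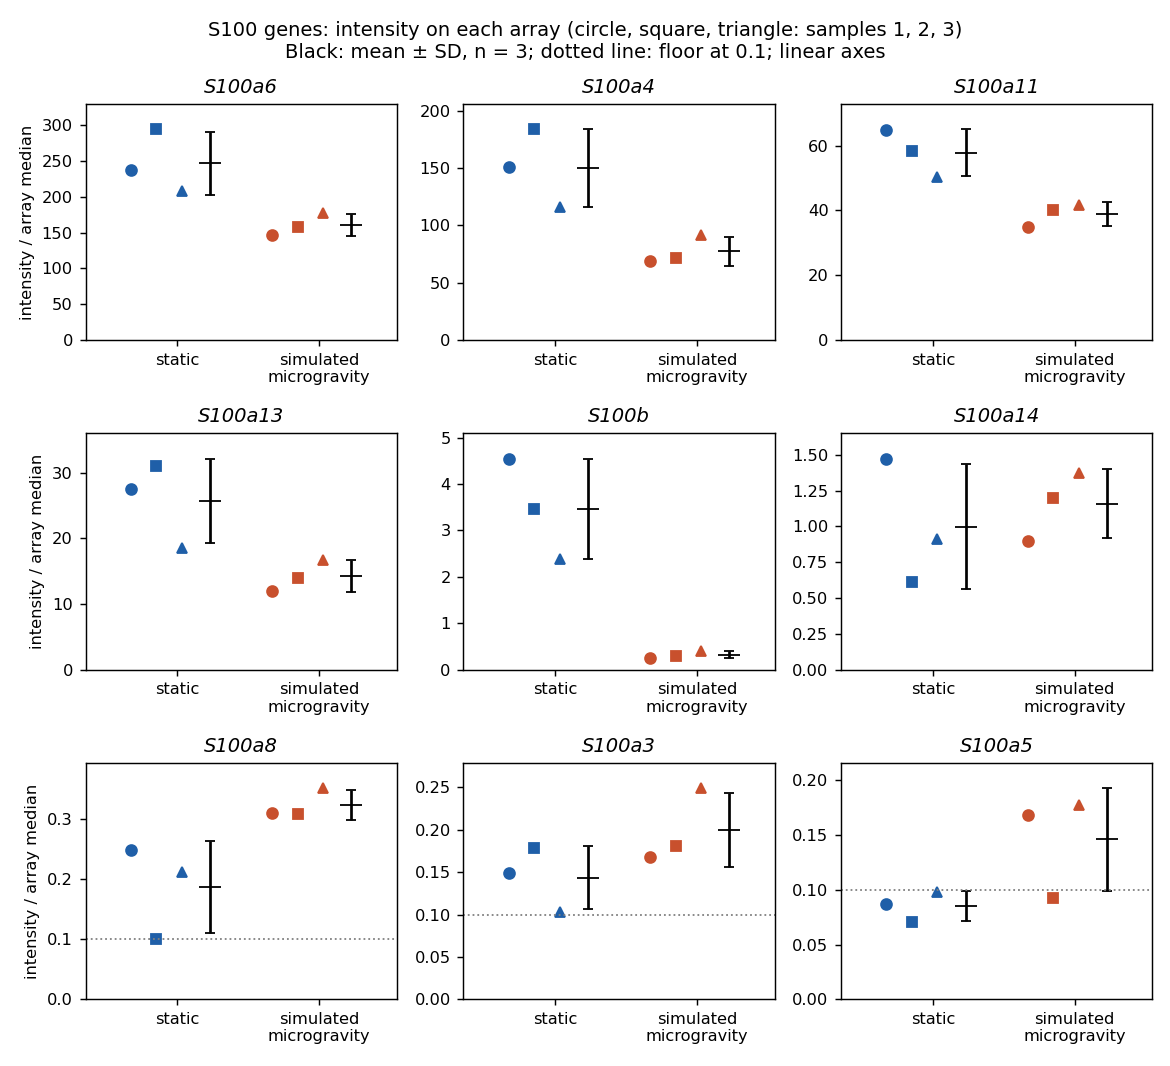
Intensity divided by the array median (linear axes from 0) for the 9 S100 genes, with 1 point per array and black bars for mean ± SD (n = 3). S100b and the bright genes S100a6, S100a4, S100a11 and S100a13 have all 3 static samples above all 3 microgravity samples, S100a8 has the reverse order, and S100a14, S100a3 and S100a5 overlap.

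Among the S100a genes, the 4 with bright probes were lower in simulated microgravity and the 4 with dim or middling probes had higher means. None of the 8 (0) passed the threshold over all probes by limma, with adjusted p-values from 0.185 to 0.890. At an unadjusted p under 0.05 there were 5 of the 8, 4 lower and 1 higher, against 10.8% of all probes in either direction, 5.28% lower and 5.56% higher. Groups did not overlap in 4 of the 8 in the lower direction, against 7.57% of all probes and 9.85% of the brightest 25% of probes. The median log2 change of the 8 was -0.14, and that of all 10146 probes was 0.05. Over the brightest 25% of probes the median was 0.08, and 39.3% of those had a lower value in simulated microgravity.

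S100a4, also called metastasin, binds the heavy chain of non-muscle myosin II and is known for its part in cell motility. Its relative intensity was 151, 184 and 116 in static samples 1, 2 and 3 and 69.0, 71.5 and 92.1 in microgravity samples 1, 2 and 3. The groups did not overlap, with static 3 and microgravity 3 the nearest to each other. The means were 150.0 ± 34.0 and 77.5 ± 12.6 (SD, n = 3), a ratio of 0.521 with a 95% interval of 0.355 to 0.767 (log2 change -0.94, SE 0.23, limma adjusted p = 0.185).

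S100a6, or calcyclin, is a partner of the calcyclin-binding protein Cacybp and gave one of the brightest signals on every array, at percentile 99.7 to 99.99. It measured 237, 294 and 207 in static samples 1, 2 and 3 and 146, 158 and 177 in microgravity samples 1, 2 and 3. All static values were the higher ones, but the lowest of them was only 1.17 times the highest microgravity value. The means of 246 ± 44.1 and 160.3 ± 15.3 (SD, n = 3) gave a ratio of 0.656 with a 95% interval of 0.460 to 0.935 (log2 change -0.61, SE 0.21, limma adjusted p = 0.362).

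S100a11 binds annexin A1 and takes part in membrane repair and endosome traffic. It had 64.9, 58.3 and 50.4 in static samples 1, 2 and 3 and 34.8, 40.03 and 41.8 in microgravity samples 1, 2 and 3. It was the least variable of the 9 in static samples, whose highest value was 1.29 times the lowest. Its means were 57.9 ± 7.24 and 38.9 ± 3.64 (SD, n = 3), a ratio of 0.673 with a 95% interval of 0.513 to 0.883 (log2 change -0.57, SE 0.16, limma adjusted p = 0.249).

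S100a13 is known for its part in the release of fibroblast growth factor FGF1 from cells by a route outside the secretory pathway. It had 27.5, 31.0 and 18.5 in static samples 1, 2 and 3 and 11.9, 14.0 and 16.8 in microgravity samples 1, 2 and 3. Static 3 stood only 1.11 times above microgravity 3, the closest approach of the groups among the 5 genes without overlap in the lower direction. The means were 25.7 ± 6.43 and 14.2 ± 2.42 (SD, n = 3), a ratio of 0.561 with a 95% interval of 0.381 to 0.825 (log2 change -0.83, SE 0.23, limma adjusted p = 0.235).

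**Figure D2:**
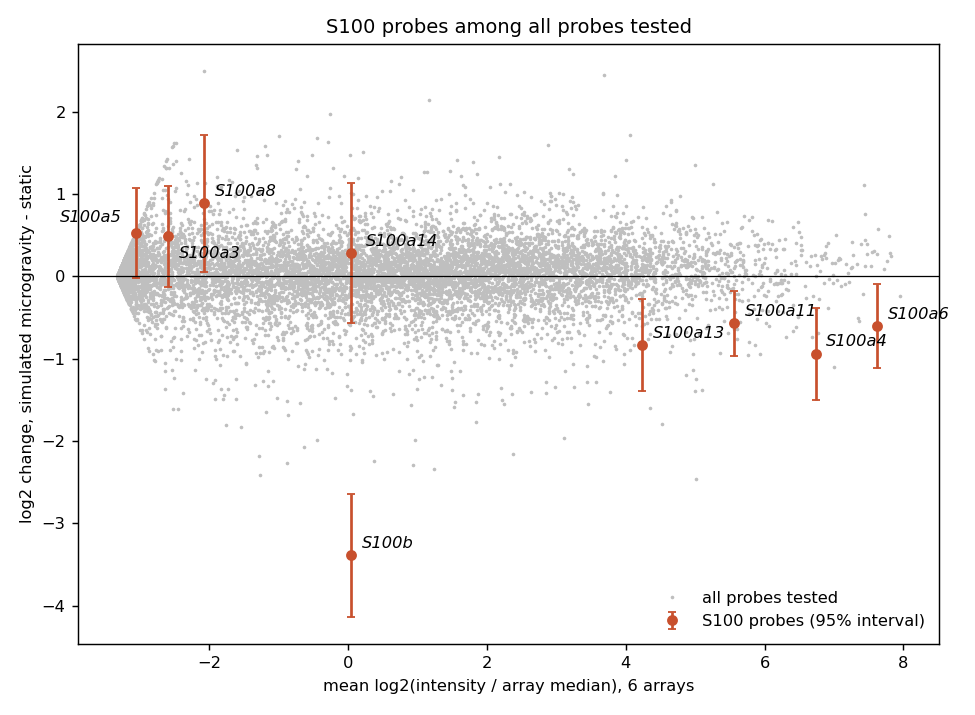
Log2 change (simulated microgravity minus static) against mean log2 relative intensity over 6 arrays for 10146 probes (grey), with the 9 S100 probes in orange and their 95% intervals from limma. S100b lies at -3.39 below all other probes, S100a13, S100a11, S100a4 and S100a6 lie between -0.94 and -0.57 at the bright end, and the other 4 lie above 0. The interval drawn for S100b does not allow for its choice as the largest drop.

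Of the 4 remaining genes S100a14 had values near the array median and S100a8, S100a3 and S100a5 were dim. S100a5 was the only one of the 9 with values at the floor of 0.1, so its log2 change depends on the floor. It was 0.53 with the floor at 0.1 and 0.73 with the floor at 0.05. S100a14, an epithelial member of the family, had 1.47, 0.612 and 0.909 in static samples 1, 2 and 3 and 0.902, 1.20 and 1.38 in microgravity samples 1, 2 and 3. The groups overlapped widely (log2 change 0.29, 95% interval -0.57 to 1.14, limma adjusted p = 0.890), and the log2 change was -0.020 without static 2. S100a8, which forms calprotectin with S100a9 in neutrophils and monocytes, had 0.248, 0.101 and 0.213 in static samples 1, 2 and 3 and 0.310, 0.309 and 0.352 in microgravity samples 1, 2 and 3. Its groups did not overlap, the higher direction here, against 8.11% of all probes (log2 change 0.89, SE 0.35, limma adjusted p = 0.421). All its values lay below 0.4 of the array median, and static 2, one of the arrays with few values at the floor, was the lowest. Over the alternatives described at the end its log2 change lay between 0.49 and 1.14, with the low value from the fit without static 2.

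S100a3, known from the cuticle of hair, had 0.149, 0.178 and 0.104 in static samples 1, 2 and 3 and 0.168, 0.181 and 0.249 in microgravity samples 1, 2 and 3. The groups overlapped, and the log2 change of 0.49 had a 95% interval of -0.13 to 1.10. It became 0.11 with the floor at 0.2, 0.27 without static 3, 0.32 without microgravity 3 and 0.72 without static 2 and microgravity 2 together. S100a5, known from olfactory neurons, was under the floor in all 3 static samples, at 0.0873, 0.0710 and 0.0981. In microgravity samples 1, 2 and 3 it had 0.168, 0.0924 and 0.178, so 1 of these 3 was also under the floor and no fold is given. Its log2 change, 0.53 with the static samples held at the floor, lay between 0.38 and 0.79 over the alternatives, with 0.38 without microgravity 3 and 0.79 without microgravity 2. S100a5 lies between S100a4 and S100a6 in the gene order.

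The arrays of a group differed from each other in a way that most S100 genes shared. Static 3 gave the lowest static value for 6 of the 9, which included S100b, S100a4, S100a6, S100a11 and S100a13. Microgravity 1 gave the lowest value of its group for 7 of the 9, and microgravity 3 the highest for 9 of 9. The share of all probes with the same orders was not counted. In log2 units S100b deviated from its group mean by -0.49 on static 3, by -0.31 on microgravity 1 and by 0.38 on microgravity 3. For S100a4 these deviations were -0.35, -0.16 and 0.26, and for S100a13 they were -0.44, -0.24 and 0.25. S100a6 deviated by -0.23, -0.13 and 0.14, and S100a11 by -0.19, -0.16 and 0.11. The median deviation of the brightest 25% of probes on the same arrays was -0.04, -0.10 and 0.12, which went the same way and on microgravity 3 was close in size to the deviations of S100a6 and S100a11. Over all probes tested the median deviation on these 3 arrays was -0.04, -0.08 and 0. The part of such shared deviations in the spread of the S100 genes was not tested.

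**Figure D3:**
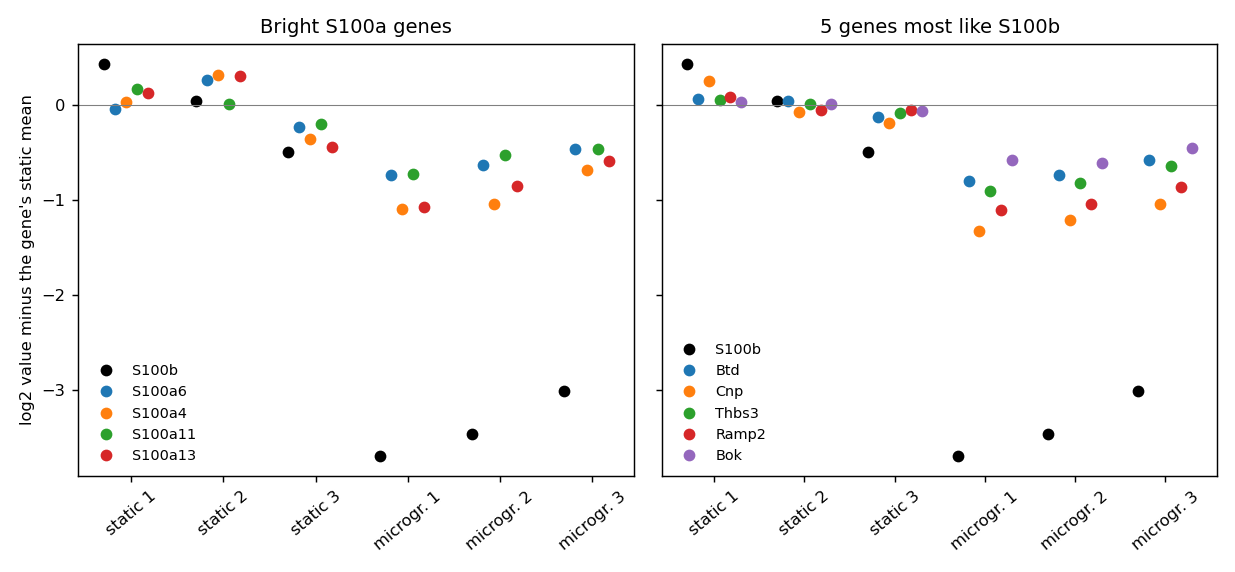
Log2 relative intensity minus the static mean of the same gene, 1 point per array. Left, S100b with the 4 bright S100a genes, and right, S100b with the 5 genes whose values were most like it. S100b lies lowest in all 3 microgravity samples in both panels, and microgravity 1 is the lowest microgravity sample for S100b and the 4 bright S100a genes.

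The genes most like S100b over the 6 arrays were ranked by Pearson's r of log2 values, among named genes whose brighter group lay above the array median. They were Btd, which recycles biotin (r = 0.996), Cnp, an enzyme abundant in myelin-forming glia (r = 0.996), and the matrix protein thrombospondin 3, Thbs3 (r = 0.995). Next came Ramp2, a partner of the adrenomedullin receptor (r = 0.995), and Bok, a member of the Bcl-2 family (r = 0.994). The arrays form 2 separate groups, so such an r mostly restates that these genes were lower in all 3 microgravity samples. The sizes were much smaller than for S100b. Cnp had 1.51 ± 0.250 in static samples and 0.657 ± 0.0647 in simulated microgravity (SD, n = 3), a log2 change of -1.19. Since these genes were picked for their likeness to S100b, their direction follows from the choice and no test is given. Ramp2 had 2.03 ± 0.111 and 1.01 ± 0.0900, a ratio of 0.500, and Bok had the smallest change of the 5, a ratio of 0.687.

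Of the 2 genes on either side of S100b in the reference order, only Prmt2, an arginine methyltransferase, had a probe. It averaged 8.92 ± 1.16 in static samples and 8.80 ± 1.36 in simulated microgravity (SD, n = 3), a log2 change of -0.02 with a 95% interval of -0.43 to 0.39.

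Annexins bind membranes in the presence of calcium, and several do so together with an S100 dimer. Of 12 in the list 11 were measured, and 0 passed the limma threshold over all probes, against 0.279% of all genes, while 5 had an unadjusted p under 0.05, against 11.5% of genes. The median log2 change was -0.29, against 0.05 over the 8588 genes tested, and it stayed between -0.46 and -0.20 in 15 alternatives. In 4 annexins the groups did not overlap in the lower direction, against 8.07% of all genes. Anxa5 had 23.4 ± 3.77 in static samples and 15.3 ± 0.259 in simulated microgravity (SD, n = 3), a ratio of 0.656 (limma adjusted p = 0.191). Anxa1, the partner of S100a11, had 107 ± 15.7 and 67.7 ± 7.85, a ratio of 0.632 (limma adjusted p = 0.246).

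The other annexins singled out here were chosen after their values were seen. Anxa2, the partner of S100a10, had 61.3 ± 12.9 in static samples and 39.1 ± 6.79 in simulated microgravity (SD, n = 3), and Anxa6 had 2.93 ± 0.835 and 1.47 ± 0.345. Anxa3 went the other way without overlap, from 21.4 ± 3.00 to 31.7 ± 3.09. S100a10 itself was not analysed here.

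**Figure D4:**
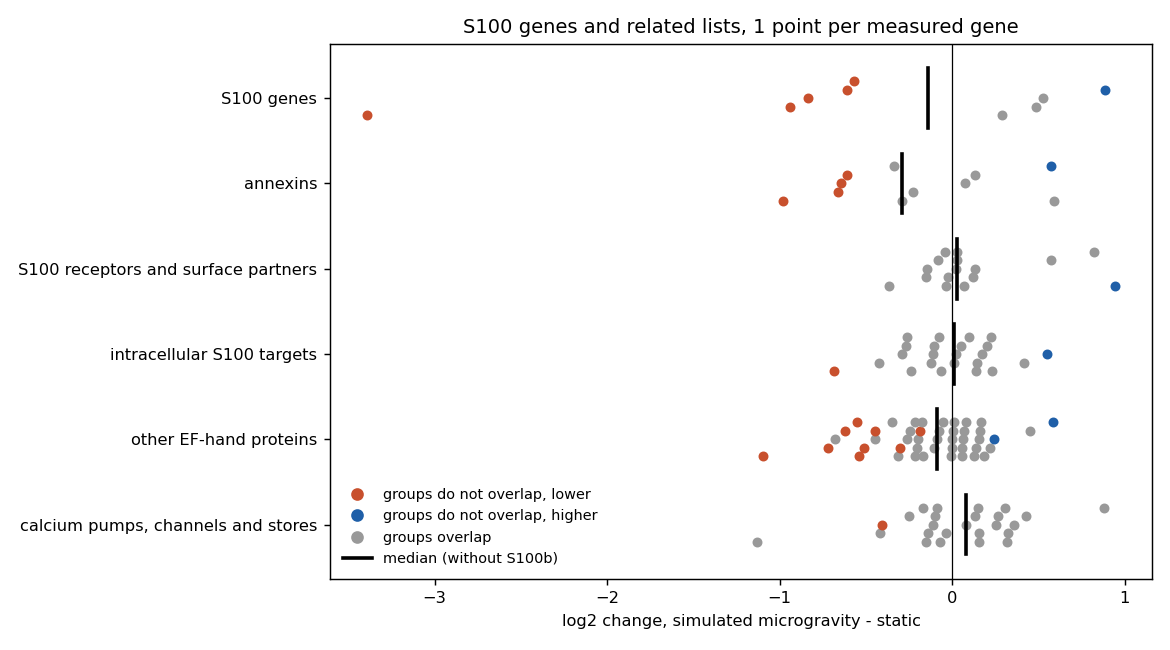
Log2 change (simulated microgravity minus static) of each measured gene in the S100 family and in 5 lists of related genes, coloured by whether the groups overlap, with black bars for medians. The bars stand at -0.14 for the 8 S100 genes other than S100b, which is drawn but left out of the median, at -0.29 for annexins and between -0.09 and 0.08 for the other 4 lists.

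Other EF-hand proteins hold calcium with the same motif as the S100 family. Of 62 in the list 45 were measured, 28 with lower and 17 with higher values, and the median log2 change was -0.09. Under the reported settings 0 passed the limma threshold, with 8 at an unadjusted p under 0.05, 7 lower and 1 higher, against 0.279% and 11.5% of all genes. Groups did not overlap in 9 in the lower and 2 in the higher direction, against 8.07% and 8.51% of all genes. Rcn3, a reticulocalbin of the secretory pathway needed for collagen production, came closest, with 16.0 ± 1.98 in static samples and 7.47 ± 0.778 in simulated microgravity (SD, n = 3). Its ratio was 0.468 (log2 change -1.09, SE 0.15, limma adjusted p = 0.0607), and it passed in 6 of the 15 alternatives. Hpcal1, a neuronal calcium sensor, had a ratio of 0.703 (limma adjusted p = 0.257). Sparc, the collagen-binding matrix protein osteonectin, named after its values were seen, had 201 ± 39.3 and 137 ± 19.7 without overlap (limma adjusted p = 0.457).

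Receptors and surface partners of S100 proteins showed 0 of 16 measured genes past the limma threshold, with 2 at an unadjusted p under 0.05, against 11.5% of all genes, and a median log2 change of 0.03. Alcam, an adhesion protein of the immunoglobulin family, had 0.160 ± 0.0333 in static samples and 0.313 ± 0.0985 in simulated microgravity (SD, n = 3, limma adjusted p = 0.269). Trpv6, an epithelial calcium channel, was dim as well, at 0.143 ± 0.0344 and 0.212 ± 0.0412. Of intracellular S100 targets 23 of 29 were measured, 0 passed the limma threshold, 2 had an unadjusted p under 0.05, against the same 11.5%, and the median log2 change was 0.01. Marcks, an actin-binding substrate of protein kinase C, had a ratio of 0.623, from 140 ± 20.6 to 87.0 ± 11.2, and the co-chaperone Stip1 a ratio of 1.46 (limma adjusted p = 0.243 and 0.421). Cacybp, the partner of S100a6 and named after its values were seen, had 21.5 ± 4.57 and 25.05 ± 3.10, with overlapping groups.

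Calcium pumps, channels and store proteins had 25 of 40 genes measured, 12 of them with means under 0.2 of the array median. Here 0 passed the limma threshold, 1 had an unadjusted p under 0.05, against 11.5% of all genes, and the median log2 change was 0.08. That gene was Calr, the calcium-binding chaperone calreticulin, with 9.47 ± 1.24 in static samples and 7.11 ± 1.101 in simulated microgravity (SD, n = 3, limma adjusted p = 0.449). Cacna1g, a T-type calcium channel, was dim, at 0.424 ± 0.393 and 0.148 ± 0.0157. Its static mean rests on static 2, at 0.876, with 0.165 and 0.231 in static samples 1 and 3, and its log2 change lay between -1.61 and -0.36 over the alternatives. Across the 15 alternatives the medians of the receptor, target, EF-hand and calcium transport lists took both signs. They were below 0 in 3, 10, 14 and 3 of the 15, in that order. The EF-hand median above 0 (0.04) came without static 1.

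S100b is also a marker of other cell types, so their markers were read in the same arrays. Of 18 glial and melanocyte markers 8 were measured, with 4 lower, 4 higher, 0 past the limma threshold and a median log2 change of -0.02. Over all genes tested 43.4% were lower and 0.279% passed the threshold. Their summed relative intensity was 4.09 to 5.71 in static and 4.13 to 4.74 in microgravity samples. Sox10, a defining factor of Schwann cells and melanocytes, stood at 0.155 ± 0.0267 and 0.152 ± 0.0566 (SD, n = 3). Cnp, given above, was the only one of the 8 without overlap between groups, against 8.07% of all genes in its lower direction. Of 17 chondrocyte markers 13 were measured, 10 lower and 3 higher, with a median log2 change of -0.12. None (0) was without overlap, against 8.07% of all genes in the lower and 8.51% in the higher direction. Their summed intensity was 6.03 to 7.38 in static and 5.70 to 6.83 in microgravity samples. The cartilage collagen Col2a1 had 1.01 ± 0.206 and 0.957 ± 0.303, and aggrecan (Acan) had 0.203 ± 0.0118 and 0.208 ± 0.0260.

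Of 12 adipocyte markers 8 were measured, with a summed intensity of 43.6 to 51.4 in static and 36.5 to 42.5 in microgravity samples. Of the 8, 3 were lower and 5 higher, with a median log2 change of 0.05, and 0 passed the limma threshold. Only 1 of them, Lpl, was without overlap, against 8.07% of all genes in the lower direction. Fabp4, a fatty acid carrier, made up the larger part of that sum on average and had 26.1 ± 4.35 in static samples and 26.5 ± 1.57 in simulated microgravity (SD, n = 3). Lipoprotein lipase (Lpl) had 16.9 ± 0.804 and 9.89 ± 1.56, without overlap (limma adjusted p = 0.109), and adiponectin (Adipoq) stood near the floor at 0.110 ± 0.0409 and 0.1002 ± 0.0461. Of 12 markers of myeloid cells, in which S100a8 is abundant, 8 were measured. Their summed intensity was 8.501 to 10.6 in static and 5.999 to 7.55 in microgravity samples. Of the 8, 4 were lower and 4 higher, with a median log2 change of 0.007, and 0 passed the limma threshold. Only 1 of them, Camp, was without overlap, against 8.07% of all genes in the lower direction. Among them Ptprc, Mpo and Itgam had means below the floor in both groups. Lyz2, the lysozyme of macrophages, had 2.52 ± 0.463 and 2.32 ± 0.218, and the myeloid factor Spi1 had 2.20 ± 0.391 and 2.25 ± 0.359 (SD, n = 3). Camp, the cathelicidin of neutrophils, named after its values were seen, had 4.60 ± 0.881 and 1.78 ± 0.372, lower without overlap (log2 change -1.38, limma adjusted p = 0.0817), opposite in direction to S100a8. Of 13 epithelial markers 6 were measured, with a sum of 0.570 to 0.784 in static and 0.688 to 0.911 in microgravity samples. The part of such cells in the S100 values was not tested.

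The direction of the S100 changes was compared over 15 other ways of processing the values, of which leaving out static 2 and microgravity 2 together was chosen after the data were seen. The log2 change of S100b lay between -3.64 and -3.17, that of S100a4 between -1.11 and -0.73, that of S100a13 between -1.05 and -0.67, that of S100a6 between -0.72 and -0.46 and that of S100a11 between -0.67 and -0.48. Leaving out or weighting arrays cannot turn a sign in these 5 genes, since their groups do not overlap. The other floors, the filter on dim probes, eBayes without trend and the replicate block left these 5 log2 changes at their reported values. Only quantile and cyclic loess normalization could therefore have turned a sign here. S100a8 had higher values in 15 of 15 (log2 change 0.49 to 1.14), S100a3 in 14 of 14 (0.11 to 0.72) and S100a5 in 13 of 13 (0.38 to 0.79). S100a3 and S100a5 were dropped with the dimmest 25% of probes, and S100a5 also with the floor at 0.2. These counts say less than their size. The S100a8 groups do not overlap either, so no choice or weight of arrays could have made its change negative. The same held for S100a5, whose static values all sat at the floor of 0.1. For S100a8, S100a3 and S100a5, eBayes without trend and the replicate block kept the reported log2 changes. S100a14 took the opposite sign in 2 of 15.

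**Figure D5:**
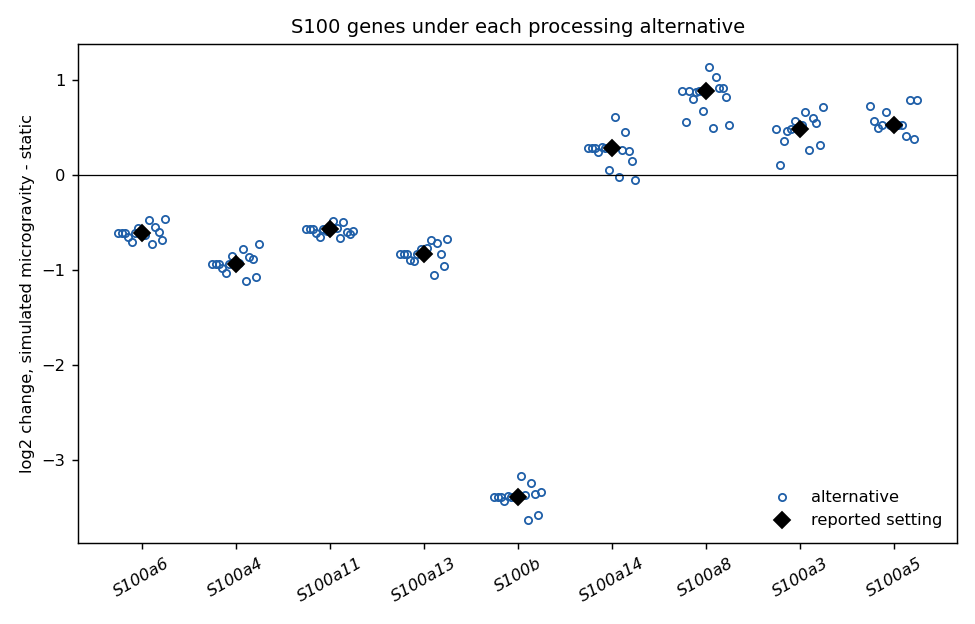
Log2 change (simulated microgravity minus static) of the 9 S100 genes under the reported setting (black diamonds) and under the alternatives (open circles, 13 to 15 per gene). S100b stays between -3.64 and -3.17 and the 4 bright S100a genes stay below 0, while S100a14 has 2 alternatives below 0.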

How the data were processed

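Expression was measured in 6 samples, 3 static and 3 on the Random Positioning Machine, and samples were grouped by their titles. The deposited values of each array were treated as linear intensities, and no source used here gives their scaling, scanner or array maker. Intensities were divided by the array median, raised to 0.1 where lower, and put on the log2 scale. Left out were 354 of 10500 probes, those at the floor on all 6 arrays or holding under 2 values in a group. Groups were compared with limma 3.58.1 in R 4.3.3 (lmFit, eBayes with intensity trend, 2-sided), with Benjamini-Hochberg adjustment over 10146 probes. The fit was also run on simulated data with independent noise for each probe. Such data hold no deviations shared by the probes of an array, so they cannot show errors from those. Symbols came from GEO's platform annotation: 8983 probes had 1 symbol, 1 had several and 1516 had none. Identifiers of 8975 probes were found in the RefSeq gene table (GRCm38.p6) and 9 were not. A gene was represented by its brightest probe. Of the 9 S100 genes, 8 had a window in the RefSeq promoter table.

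The members and lists were chosen with earlier results of these data known. The text names all S100 genes, the 2 genes of smallest p in each pathway list, the genes beside S100b, and the 5 genes most like S100b by r. Others are said to be named after their values were seen. Alternatives were 2 other floors, a filter on dim probes, quantile and cyclic loess normalization, eBayes without trend, array weights, a replicate block and leaving out arrays.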

Additional observations from a re-analysis of the deposited data

How the results depend on the processing

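Among S100 genes other than S100b, 0 passed the limma threshold in the reported fit and in each of 15 alternatives, with 1 to 6 at an unadjusted p under 0.05. The 6 came with array weights, where 1380 of all 10146 probes had such a p. The 1 came without static 2 and microgravity 2 together, where 848 of 8896 probes did. S100a4 had adjusted p-values of 0.0554 to 0.543 over the alternatives, the lowest with cyclic loess normalization. The log2 change of S100a14 was -0.020 without static replicate 2 (-0.020 to 0.61 with 1 array left out) and -0.055 without static 2 and microgravity 2 together, and the cause was not tested. The 28 called probes became 53 with the floor at 0.05 of the median, 59 with the dimmest 25% of probes left out, 54 with quantile and 57 with cyclic loess normalization, and 115 with array weights. They became 0 without static 2 and microgravity 2 together, and 0 with any 1 array left out. Of the 5 pathway lists 1 gene, Rcn3, passed with the floor at 0.05, the floor at 0.2, the dimmest 25% of probes left out, quantile normalization, cyclic loess normalization and array weights, and 0 otherwise. With the replicate block 0 probes passed, and 938 had an unadjusted p under 0.05. Deviations of same-numbered samples correlated at -0.21, 0.46 and -0.18, and static 1 correlated best with microgravity 3 (0.66). The 0.46 of static 2 with microgravity 2 was the best match for each of these samples. Deviations within a group of 3 sum to 0, so these values cannot decide whether same-numbered samples were paired. Choosing members by mean log2 values was not run, as all 9 probes were members. No detection call was used, so signals below about 0.1 of the array median cannot be told from background here.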

Other observations

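Beyond S100a1, at one end of the S100 cluster, lie genes outside the family. Of the 5 nearest protein-coding ones 4 had a probe, chosen after the S100 values were seen. Chtop, an RNA export factor and the nearest of them, had 18.2 ± 1.63 in static samples and 22.8 ± 1.17 in simulated microgravity (SD, n = 3), higher without overlap (limma adjusted p = 0.446). Snapin, a protein of vesicle and lysosome transport, had 2.91 ± 0.484 and 2.04 ± 0.219, lower without overlap (limma adjusted p = 0.380). Ilf2, a subunit of a double-stranded RNA-binding complex, had 5.15 ± 1.11 and 7.07 ± 0.708 (limma adjusted p = 0.421), and the natriuretic peptide receptor Npr1 had 1.41 ± 0.396 and 1.48 ± 0.319 (limma adjusted p = 0.977).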
